A study of Mus musculus with 4 samples.

Results

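Some TEAD1 peaks in mouse cardiac fibroblasts lay in dense runs along the chromosomes. A dense cluster was defined here by position alone: peak summits were sorted along each chromosome, neighbours at most 12.5 kb apart were chained, and chains of 5 or more summits were kept. Each of 2 deposited peak lists was chained on its own, and a block of chromosome 9 (5.8 to 8.84 Mb) was left out. List 1 gave 265 clusters, which held 1589 of 21243 peaks outside the block (7.48%, Wilson 95% interval 7.13 to 7.84). List 2 gave 262 clusters with 1563 of 21138 peaks (7.39%, 7.05 to 7.75). In all, the lists held 21285 and 21218 peaks. Summit positions chose the clusters, so the closeness of their summits is a description and not a result.

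The peaks come from chromatin immunoprecipitation with sequencing (ChIP-seq), which recovers the DNA bound by a protein. The cells were neonatal mouse cardiac fibroblasts in culture, either overexpressing TEAD1 (OE-TEAD1) or carrying the overexpression negative control (OE-NC). Each of these 2 conditions gave 1 ChIP library and 1 input library, so there were 4 libraries and no replicates, and no strain, promoter of the construct or antibody is given in the sources used here. The labels do not say which list came from which condition, so the lists are called list 1 and list 2, every difference between them compares 2 peak lists, and no effect of TEAD1 overexpression is given.

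TEAD1 binds DNA at short MCAT elements and by itself activates transcription poorly. It needs the coactivators YAP or TAZ, which the Hippo kinases keep out of the nucleus, and in fibroblasts this pair drives genes of contraction, adhesion and matrix. Stretches of the genome where many enhancers lie close together, often chained at the same gap as used here, are known from other factors and tend to mark genes that define a cell state. Peaks measure binding and say nothing of expression, and whether these clusters act as enhancers was not measured.

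The largest clusters held 15 summits, and some of the large ones carried a microRNA gene. Of microRNA genes 0.814% in list 1 and 1.06% in list 2 lay inside a cluster span. Protein-coding genes overlapped a cluster about as often, in 0.814% and 0.883% of cases. MicroRNAs are short RNAs that pair with messages through their seed, bases 2 to 8 from the 5′ end, and lower their translation. The mature sequences of those within clusters that are best known in fibroblasts are shown here with the seed in capitals, from RefSeq (GRCm38.p6). They are annotated products of genes inside cluster spans, and whether the cells made them was not measured. The genes of miR-29a, miR-29b and miR-21a lay in clusters of both lists, and the genes of the others in clusters of list 2 alone.
miR-29a-3p: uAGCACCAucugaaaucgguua
miR-29b-3p: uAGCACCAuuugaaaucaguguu
miR-21a-5p: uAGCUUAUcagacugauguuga
miR-199a-5p: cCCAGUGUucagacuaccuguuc
miR-199a-3p: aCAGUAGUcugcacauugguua
miR-214-3p: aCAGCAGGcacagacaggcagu
miR-99b-5p: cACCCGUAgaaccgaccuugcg
let-7e-5p: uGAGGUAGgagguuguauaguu
miR-125a-5p: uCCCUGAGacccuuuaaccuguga
miR-29a-3p and miR-29b-3p share the seed AGCACCA. The other 7 have a seed each.

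The promoters of 4 genes of the cytoskeleton and of the TEAD response held a summit of a cluster and at least 1 copy of the core of the MCAT element, GGAATG on either strand (CATTCC on the other). They are shown as the 250 bases that end just before the annotated start (RefSeq, GRCm38.p6), on the gene's strand, with the motif in capitals. Ccn1 lies at chr3:145649986-145650235 on the minus strand, Cald1 at chr6:34598254-34598503 on the plus strand, Acta2 at chr19:34255374-34255623 on the minus strand and Ankrd1 at chr19:36119845-36120094 on the minus strand.
Ccn1: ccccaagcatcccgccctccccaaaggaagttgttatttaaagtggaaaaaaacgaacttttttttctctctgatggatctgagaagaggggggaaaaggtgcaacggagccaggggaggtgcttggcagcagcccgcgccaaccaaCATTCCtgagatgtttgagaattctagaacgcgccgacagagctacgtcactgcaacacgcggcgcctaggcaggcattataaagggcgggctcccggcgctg
Cald1: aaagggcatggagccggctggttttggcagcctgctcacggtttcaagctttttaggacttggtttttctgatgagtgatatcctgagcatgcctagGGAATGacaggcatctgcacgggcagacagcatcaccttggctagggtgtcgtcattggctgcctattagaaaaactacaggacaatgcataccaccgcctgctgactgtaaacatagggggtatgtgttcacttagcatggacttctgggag
Acta2: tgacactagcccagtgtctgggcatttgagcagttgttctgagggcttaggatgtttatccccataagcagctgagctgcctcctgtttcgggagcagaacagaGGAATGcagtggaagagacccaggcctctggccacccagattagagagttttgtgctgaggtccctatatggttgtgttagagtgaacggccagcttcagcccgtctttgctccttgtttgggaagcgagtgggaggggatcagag
Ankrd1: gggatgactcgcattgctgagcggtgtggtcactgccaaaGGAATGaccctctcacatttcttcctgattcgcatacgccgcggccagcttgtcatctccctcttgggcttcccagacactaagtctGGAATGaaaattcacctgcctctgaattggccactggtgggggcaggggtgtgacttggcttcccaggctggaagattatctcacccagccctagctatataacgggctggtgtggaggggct
The first base of the motif stood 103 bases before the start in Ccn1, 153 in Cald1 and 146 in Acta2, and 210 and 123 in Ankrd1. The summits at these promoters are given with their genes further on.

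Clusters were mostly small. Of the 265 clusters of list 1, 138 had just 5 summits, 37 had 8 or more and 9 had 10 or more. In list 2 the numbers were 138, 32 and 7 of 262. Just under the limit, 355 chains of list 1 and 297 of list 2 had 4 summits, and these chains had a median span of 15.4 kb in both lists. Chains of 5 spanned 18.8 kb (list 1) and 19.9 kb (list 2). Folds over input on the 2 sides of the limit were close: the median peak was 6.44-fold in chains of 4 and 6.56-fold in chains of 5 of list 1, and 7.21-fold and 7.59-fold in list 2. From 1 to 7 summits the number of chains fell at each step in both lists, with no gap at 5. Chains of 13 were missing from both lists, and chains of 12 from list 2, while chains of 14 and 15 were present.

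**Figure D1:**
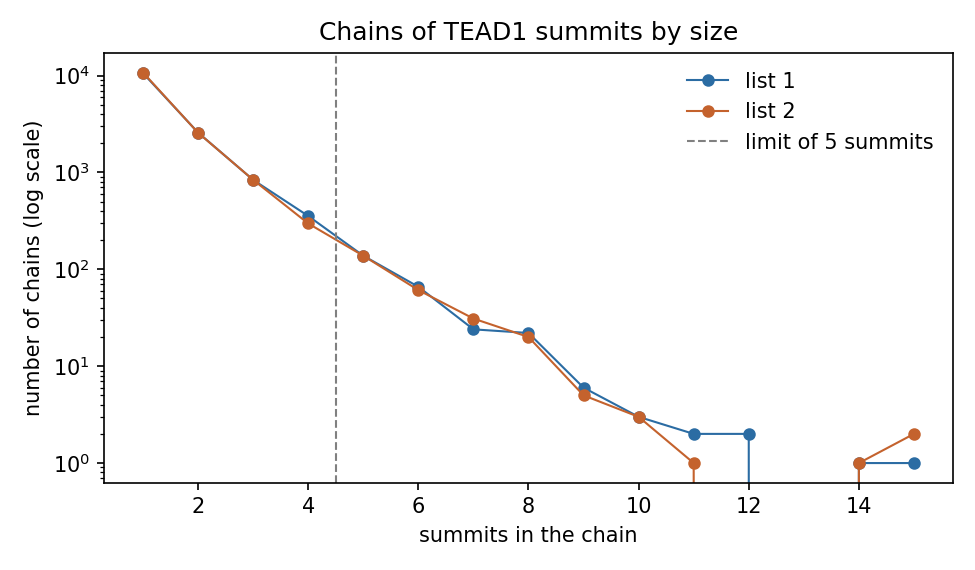
Number of chains (vertical axis, log scale) by the number of summits in the chain (horizontal axis), for list 1 and list 2. Points are counts of chains and a size with no chain has no point; the dashed line marks the limit, above which 265 and 262 chains count as clusters.

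The median cluster spanned 22.7 kb in list 1 (5.52 to 85.7) and 23.0 kb in list 2 (5.52 to 74.6). Neighbouring summits inside clusters stood a median of 4268 bp apart in list 1 and 4294 bp in list 2. Gaps under 2 kb made up 22.6% of them (20.4 to 24.9) in list 1 and 25.4% (23.1 to 27.8) in list 2. Clusters were found on every autosome. The X chromosome had 0 clusters from 311 peaks in list 1 and 1 cluster from 378 peaks in list 2, and chromosome 4 of list 1 had the highest share of its peaks in clusters, 11.1%.

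The cluster with most summits in list 1, shared with Rock2 as the largest in list 2, lay on chromosome 6 away from protein-coding genes. It ran from 31051406 to 31137093 in list 1 and from 31051304 to 31125860 in list 2, with 15 summits in each, and the nearest protein-coding gene, Klf14, lay 92.3 kb off. It contained Mir29a and Mir29b-1, whose miR-29 products (seed AGCACCA, above) are known to repress collagen and other matrix messages. The summit nearest to both lay 0.483 kb from Mir29a in list 1 and 0.487 kb in list 2. It was 7.52-fold over input in list 1 (26 ChIP fragments at the summit, exact Poisson 95% interval 5.01 to 10.9) and 6.66-fold in list 2 (30 fragments, 4.56 to 9.42). The strongest summit of the cluster stood 30.9 kb from the first summit of either list, at 23.1-fold (18.1 to 29.1) and 30.4-fold (24.5 to 37.2). Of the 15 summits 12 were shared in list 1 and 13 in list 2, where shared means that the peaks overlap by at least 1 bp.

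Among the clusters with most summits were those at Myh9 and Rock2, both of the contractile cytoskeleton. Myh9, the heavy chain of non-muscle myosin IIA, held 14 summits over 54.1 kb in list 1 (chr15:77794644-77848749) and 10 over 34.7 kb in list 2 (chr15:77794638-77829289). Its strongest list 1 summit was 22.3-fold (17.2 to 28.5). List 2 had a peak at the same place, 17.6-fold, but a gap over 12.5 kb kept it out of the chain. At Myh9 11 of the 14 list 1 summits and 11 of the 12 list 2 summits in the stretch had a partner in the other list, so the sites were more alike than the cluster sizes. Rock2, a kinase that promotes the activity of this myosin, held 15 summits in 1 cluster of list 2 (59.9 kb, strongest 23.7-fold, 19.1 to 29.1). In list 1 its 12 summits fell into 2 clusters, and the strongest was 17.3-fold (13.5 to 21.8), at the same site.

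Vmp1, which encodes an autophagy protein and hosts Mir21a, carried a cluster of 12 summits in list 1 (chr11:86568805-86610780) and 14 in list 2 (chr11:86568808-86608034), also reaching to Tubd1. miR-21 is among the microRNAs that rise in fibrotic hearts. The nearest summit to Mir21a lay 2.21 kb away in list 1 (10.1-fold, 6.91 to 14.3) and 1.22 kb away in list 2 (6.00-fold, 3.82 to 9.02). The strongest summit was the same site in both lists, 22.9-fold (18.5 to 28.0) and 33.5-fold (27.3 to 40.8). A further cluster inside Vmp1 passed the limit in list 2 alone, with 6 summits in 10.5 kb. Its strongest summit was 71.0-fold in list 2 (61.8 to 81.1). List 1 had 4 summits there and the strongest was 46.2-fold (39.5 to 53.8), so binding at this stretch was called in both lists.

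**Figure D2:**
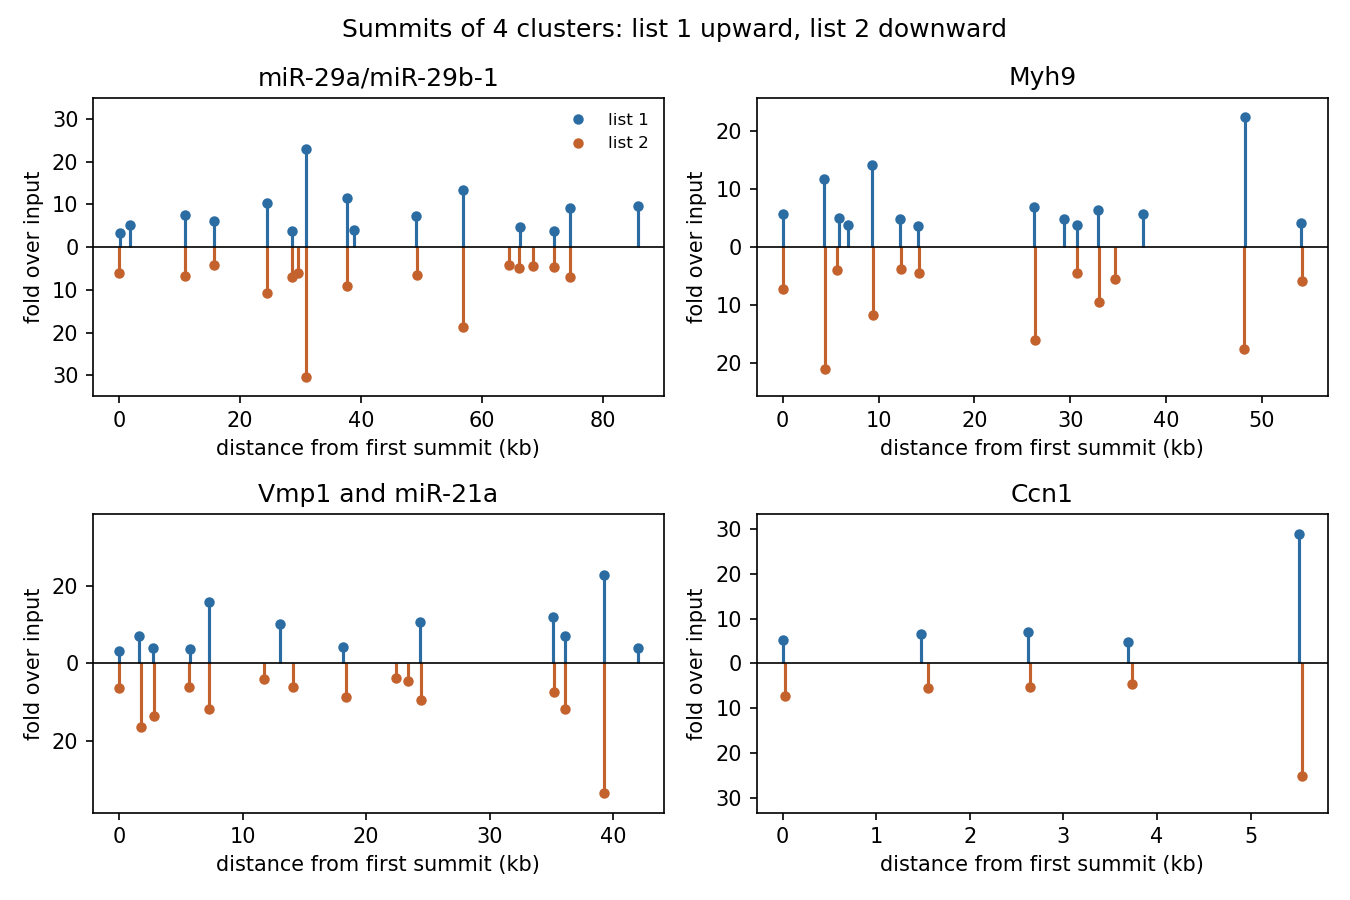
Summits of 4 clusters by distance from the first summit of either list (horizontal axis, kb) and fold over input (vertical axis, list 1 upward, list 2 downward). Each stem is 1 summit; the strongest stems of the miR-29, Vmp1 and Ccn1 clusters stand at the same place in both lists, and the Ccn1 panel spans 5.5 kb against 85.7 kb for miR-29.

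Other clusters with most summits lay at genes of varied function. Bcar3, an adaptor in integrin signalling, held 11 summits in list 1 and 9 in list 2. Its strongest were 49.1-fold (41.3 to 57.9) in list 1 and 52.7-fold (45.3 to 60.9) in list 2, and these were different sites, both present in both lists. Csf1, the macrophage growth factor, held 6 summits in list 1 and 11 in list 2. Of the 11, 3 were called in list 2 alone, and 1 of these, 5.65-fold, bridged a gap to 2 further sites, the stronger at 39.7-fold (34.2 to 45.8) over a background of 3.73 fragments. List 1 had both sites outside its cluster, the stronger at 22.8-fold (19.2 to 26.9) over 5.18.

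Plin2, a lipid droplet coat protein, held 11 and 8 summits, and its strongest reached no more than 9.86-fold in list 1 (7.57 to 12.6) and 12.6-fold in list 2 (9.77 to 16.1). Ice2 and Anxa2, annexin A2, shared a cluster of 10 and 9 summits with 4 and 5 summits over 10-fold. Dlgap1 held 10 summits in each list, and Mtap 10 in list 1 and 6 in list 2. Between genes, a cluster 109 kb from Asap1 held 9 and 10 summits, with its strongest at 29.7-fold (25.2 to 34.8) and 58.9-fold (51.3 to 67.3) over backgrounds of 4.15 and 2.67 fragments. Another 72.6 kb from Sgk1, a kinase induced by serum, held 8 and 9 summits. Thus a high number of summits went with strong summits at some of these genes and with weak ones at others.

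The clusters with most summits per kb among those with at least 6 included S100a3 in list 1 (8 summits in 15.1 kb, strongest 23.1-fold, 18.7 to 28.2), Niban1, Cipc, Psmc3 with Slc39a13, and one 22.0 kb from Cspg4b. In list 2 they were the further Vmp1 cluster, Ahcyl1 (6 summits in 10.7 kb, strongest 44.0-fold, 38.0 to 50.8), Pip5k1a with Vps72, Lurap1l and Acta2. With smaller clusters included, the densest cluster of both lists was that of Ccn1.

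Ccn1 encodes a secreted matricellular protein and is a classic target of YAP and TEAD. All 5 summits of its cluster were matched in the other list, over 5.52 kb in each. The summits of list 1 were 5.15-, 6.61-, 6.98-, 4.77- and 29.0-fold along the chromosome, and those of list 2 were 7.31-, 5.53-, 5.16-, 4.56- and 25.2-fold. The strong site lay upstream of the gene, 1.95 kb before the start in list 1 (23.7 to 35.1) and 1.97 kb in list 2 (20.6 to 30.5). The promoter printed above held one of the weak sites: its summit stood 113 bases before the start in list 1 (12 fragments, 2.64- to 8.06-fold) and 160 in list 2 (13 fragments, 2.58- to 7.57-fold). The other 3 lay within 3.6 kb downstream of the start. The interval of the strong site did not overlap that of any other site in either list.

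Gene groups were read against all protein-coding genes. Of 21631 such genes, 1.10% lay within 10 kb of a cluster in list 1 and 1.14% in list 2. Long genes met a cluster more often: of those of at least 100 kb, 3.67% did in list 1 and 3.87% in list 2. Genes with any TEAD1 summit within 10 kb did so in 3.26% and 3.39%. Most groups below had a nearby summit more often than all genes (33.7% in both lists), so this last share is closer than that of all genes. For groups of long genes a closer one counts long genes with a summit nearby. It was 4.51% in list 1 and 4.77% in list 2 for genes of at least 50 kb, and 5.65% and 5.82% for those of at least 100 kb. All shares are descriptions, and no test was made. The gene lists were chosen with earlier results of these data known, so a high share in a group is no independent evidence.

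Actin and adhesion genes met clusters most often in list 1. Of 30 such genes 8 lay within 10 kb of a cluster in list 1 (26.7%) and 6 in list 2, and their median span was 56.0 kb. Of the 28 and 27 with a summit nearby, this was 28.6% and 22.2%. Myh9, Lpp, Cald1, Vcl and Itga5 did so in both lists, and Actn1 did so in list 2 alone. Those in list 1 alone included Actn4 and Csrp1. Lpp, a LIM protein of focal adhesions, held 9 summits in list 1 and 8 in list 2, the strongest at 11.4-fold (8.44 to 15.2) and 25.4-fold (20.3 to 31.3). A further cluster of 5 summits in Lpp passed the limit in list 2 alone. Vcl, vinculin, held 5 and 6 weaker summits, none above 10.1-fold. Actn4, an alpha-actinin, had a cluster in list 1 alone, yet its strongest site was 37.3-fold (31.3 to 44.2) there and 64.2-fold (55.3 to 74.2) in list 2. The local background at that Actn4 site was 2.59 fragments in list 1 and 1.87 in list 2, on 133 and 183 fragments.

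Cald1 encodes caldesmon, which binds actin and tropomyosin. Its cluster began at the promoter printed above, where the summit stood 142 bases before the start in list 1 and 78 in list 2. This was also its strongest site, 29.0-fold (78 fragments, 23.0 to 36.1) in list 1 and 26.0-fold (99 fragments, 21.2 to 31.6) in list 2. The middle of the GGAATG copy lay 9 bases from the list 1 summit and 73 from that of list 2. The other summits lay downstream, the last of them 21.5 kb in list 1 and 39.5 kb in list 2. The list 1 folds of these were 4.04 to 11.8 and those of list 2 were 3.18 to 14.0.

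Genes of the activated fibroblast, or myofibroblast, came next. Of 27, 6 lay within 10 kb of a cluster in list 1 and 6 in list 2 (22.2% each), and these were 6 of the 22 and 6 of the 20 with a summit nearby. Acta2, Thbs2, Runx2 and Ddah1 did so in both lists, Col1a2 and Runx1 in list 1 alone, and Lox and Thbs1 in list 2 alone. Acta2, the smooth muscle actin that marks myofibroblasts, held 5 summits in list 1 and 6 in list 2. Along the chromosome they were 5.88-, 8.07-, 5.81-, 9.74- and 14.5-fold in list 1. In list 2 they were 6.82-, 3.51-, 6.36-, 3.94-, 13.3- and 15.5-fold. The strongest was upstream in both lists, 10.5 kb before the start (10.4 to 19.6 in list 1, 11.4 to 20.6 in list 2). The summit at the printed promoter stood 110 bases before the start in list 1 (15 fragments, 3.41- to 9.35-fold), and that of list 2 stood 278 bases before it, outside the printed bases.

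Runx2, a transcription factor of bone and of activated fibroblasts, held 5 summits in each list, led by a site at 37.6-fold (30.9 to 45.4) and 47.8-fold (40.2 to 56.5). Ddah1, an enzyme that degrades asymmetric dimethylarginine, held 6 in each and a further cluster of 5 in list 2, led by a site at 76.3-fold (66.9 to 86.5). In list 1 that site was 46.9-fold (40.3 to 54.4) with 3 summits in the stretch. Lox, the enzyme that crosslinks collagen, had 5 summits in list 2 and 4 in list 1. Its strongest folds were 16.2 (12.01 to 21.3) in list 2, at position 52535801, and 13.6 (9.63 to 18.7) in list 1, at 52529927. These were different sites.

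Of 28 YAP and TEAD target genes, 3 lay within 10 kb of a cluster in list 1 (10.7%) and 5 in list 2 (17.9%). These were 3 of the 22 and 5 of the 25 with a summit nearby. Ccn1 and Myof did so in both lists, F3 in list 1 alone and Ankrd1, Asap1 and Thbs1 in list 2 alone. Myof, encoding myoferlin of the plasma membrane, held 6 summits in each list at matching sites. Its list 1 folds were 9.18, 6.61, 16.6, 5.21, 23.5 and 4.79, and its list 2 folds 7.09, 6.11, 16.0, 3.48, 20.01 and 8.95. The 2 strongest sites were thus the same in both lists. Ankrd1, a nuclear ankyrin-repeat protein, had 5 summits in list 2, one of them 234 bases before the start in the printed promoter (20.2-fold, 101 fragments, 16.5 to 24.5). List 1 had 4 summits there, with the strongest at 35.0-fold (101 fragments, 28.6 to 42.5). The fragments were equal in both lists, and the local background was 1.91 in list 1 and 4.06 in list 2.

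Matrix genes other than those above had 3 of 30 members within 10 kb of a cluster in each list, namely Col4a1, Col4a2 and Fbn1. Among those with a summit nearby the share was 12.5% in each. Col4a1 and Col4a2 encode the chains of basement membrane collagen IV and lie side by side. Col4a1 held 9 and 8 summits, the strongest at 19.5-fold (14.7 to 25.4) and 27.2-fold (21.6 to 33.9), and Col4a2 held 7 and 5. Fbn1, encoding fibrillin 1, held 6 summits in list 1 and 9 in list 2.

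In other signalling groups at most 2 genes of a group met a cluster in each list. Of 26 TGF-beta and BMP genes Smad7, an inhibitor of the pathway, did so in both lists, with 7 and 6 summits led by 47.0-fold (39.3 to 55.9) and 33.6-fold (28.1 to 39.9), and Tgfbr3 in list 1 alone. Of 23 growth factor signalling genes Egfr and Pdgfc did so in both lists. Of 28 Hippo pathway genes only Vgll3, a cofactor of TEAD, did so, in list 2, and list 1 had 4 summits there. Among members with a summit nearby the shares were 11.1% and 5.88% for TGF-beta and BMP genes. They were 12.5% and 11.1% for growth factor signalling genes, and 0% and 4.76% for Hippo pathway genes. All genes with a summit nearby had 3.26% and 3.39%. None of the 18 AP-1 and immediate-early genes lay within 10 kb of a cluster in either list. Of them, 12 in list 1 and 11 in list 2 had a summit within 10 kb. A share of 0 among so few genes is no sign of a difference from the 3.26% and 3.39% of all genes with a summit nearby. The AP-1 and immediate-early genes are short, with a median span of 5.32 kb.

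Genes that mark other cells of the heart were looked at for the label of the cells, although a peak near a gene does not show that it is expressed. None of the endothelial, leukocyte, smooth muscle and pericyte, epicardial and neuronal genes lay within 10 kb of a cluster. Of the 9 cardiomyocyte genes only Mb, myoglobin, did so, in list 2 and at a distance of 7997 bp. Of 9 resident fibroblast markers Col1a2 did so, in list 1. These lists are small, and a share of 0 among 5 to 12 genes is no sign of a difference from the background.

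**Figure D3:**
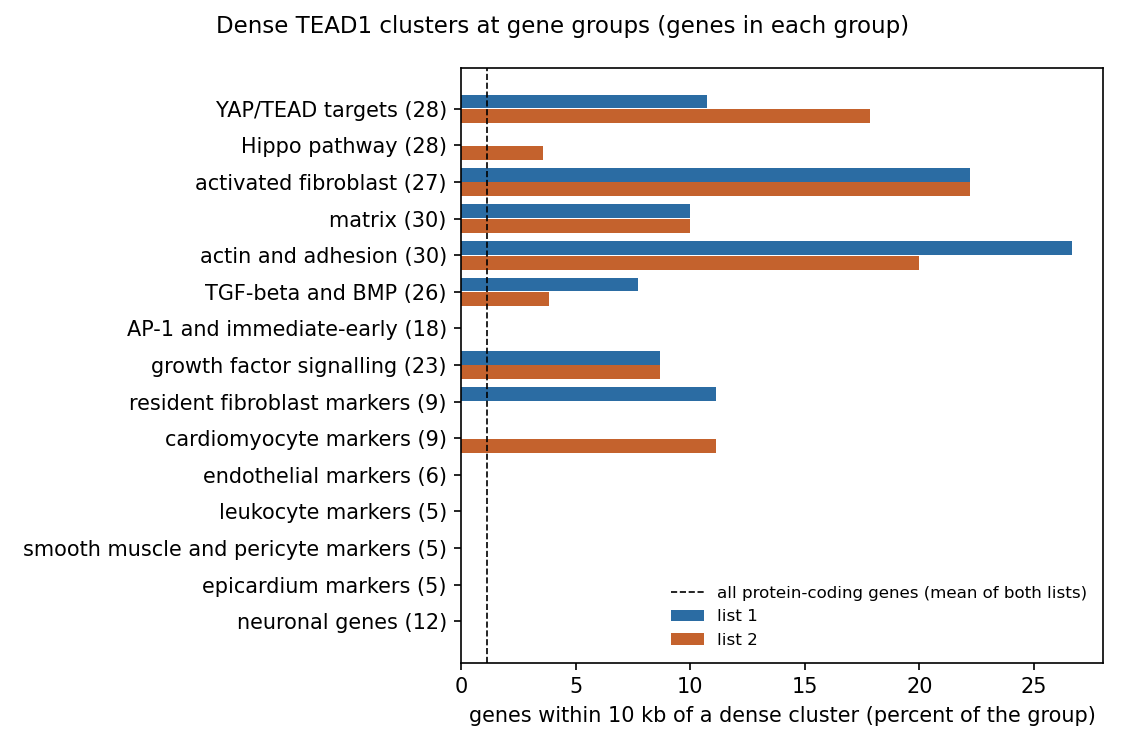
Share of each gene group (vertical axis, number of genes in brackets) within 10 kb of a dense cluster (horizontal axis, percent), for list 1 and list 2. The dashed line is the mean over both lists of the share of all protein-coding genes, 1.10% in list 1 and 1.14% in list 2. A closer share, that of genes with a TEAD1 summit within 10 kb, was 3.26% and 3.39% and is not drawn. Actin and adhesion genes reach 26.7% in list 1 and activated fibroblast genes 22.2% in both. The groups were chosen with earlier results of these data known.

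MicroRNA genes inside the span of a cluster numbered 10 in list 1 and 13 in list 2, which is 0.814% and 1.06% of 1228. Protein-coding genes overlapped a cluster about as often, in 0.814% and 0.883% of cases. Mir6896, Mir5123, Mir29a, Mir29b-1, Mir7057, Mir3109, Mir21a and Mir1291 were inside clusters of both lists. These are counts of single genes, and several lie side by side: Mir29a with Mir29b-1, Mir199a-2 with Mir214, and Mir99b with Mirlet7e and Mir125a. With microRNA genes within 10 kb of each other counted once, both lists had 9. Mir199a-2 and Mir214 are made from Dnm3os, which runs antisense within Dnm3. The list 2 cluster there held 8 summits over 45.4 kb, and that of list 1 held 5 over 16.6 kb and stopped short of the microRNAs. List 1 nevertheless had a summit 0.260 kb from Mir199a-2 (7.71-fold, 4.85 to 11.7), where list 2 had one at 0.246 kb (10.5-fold, 7.13 to 14.9). Close to Mir214 stood a stronger site, 19.2-fold (14.6 to 24.9) in list 1 and 32.1-fold (25.9 to 39.3) in list 2. Mir99b, Mirlet7e and Mir125a lay in a list 2 cluster of 8 summits that reached from Spaca6 to Has1, a hyaluronan synthase. List 1 had 4 summits in that stretch.

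Clusters overlapped protein-coding genes in 61.5% of cases in list 1 (55.5 to 67.2) and 66.4% in list 2 (60.5 to 71.9). A longer stretch meets a gene more easily than a point does, so single summits give the fairer reading. Of summits in clusters 49.0% (46.6 to 51.5) were inside a protein-coding span in list 1, against 48.4% of all summits. In list 2 it was 52.1% (49.7 to 54.6) against 47.8%. Clusters wholly inside 1 gene made up 35.1% and 39.7%, and 24 clusters of list 1 and 23 of list 2 had no protein-coding gene within 100 kb.

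Peaks of clusters met promoters about as often as other peaks. They overlapped a promoter window, 250 bases before to 50 after a start, in 2.14% of cases in list 1 (1.54 to 2.98), against 2.47% of all peaks. In list 2 it was 1.73% (1.19 to 2.50) against 2.31%. Of 17 promoter windows with a cluster summit in list 1, 9 held GGAATG or its complement, and in list 2 it was 8 of 16. Among all 32851 windows 14.7% held it. Windows under cluster peaks held it in 47.2% in list 1 (17 of 36, 32.0 to 63.0) and 35.7% in list 2 (10 of 28, 20.7 to 54.2). Windows under other peaks held it in 33.8% (29.9 to 37.8) and 33.7% (29.7 to 37.8). The intervals overlap, and cluster peaks could not be told from other peaks at this number of windows. The AP-1 motif TGANTCA, which reads alike on both strands, was in 1 of the 17 and 3 of the 16 windows, against 7.81% of all. Under cluster peaks, windows held it in 13.9% in list 1 (5 of 36, 6.08 to 28.7) and 17.9% in list 2 (5 of 28, 7.88 to 35.6). Under other peaks it was 18.8% (15.7 to 22.2) and 19.6% (16.4 to 23.2), and these intervals overlap too. The motifs can share the letters CA where they adjoin, some windows overlap, and a match is a description and not a bound site.

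The median peak of a cluster was 6.57-fold over input in list 1 (quartiles 4.66 and 10.3) and 7.33-fold in list 2 (5.05 and 12.5). Other peaks had medians of 6.24 and 6.77. Of cluster peaks, 26.1% were at least 10-fold over input in list 1 (24.0 to 28.3), against 22.9% of all peaks, and 33.8% were so in list 2 (31.5 to 36.2), against 28.1%. At least 1 such peak was present in 81.1% of clusters in list 1 (76.0 to 85.4) and 91.2% in list 2 (87.2 to 94.1). Clusters with 2 or more made up 49.8% (43.8 to 55.8) and 64.9% (58.9 to 70.4), and those with 3 or more 18.1% and 28.6%. These shares of clusters depend on the number of peaks in a cluster, 5 or more by the rule. No like share was computed for sets of other peaks, so they do not set clusters apart. Within a cluster the strongest summit had a median of 2.35 times the fold of the median summit in list 1 and 2.55 times in list 2. It stood at an end of the cluster in 34.3% (28.9 to 40.2) and 36.3% (30.7 to 42.2) of cases. A cluster has 2 ends, and most had 5 or 6 summits (204 of 265 in list 1, 199 of 262 in list 2). Shares near these would follow from a placing without regard to position, so they are no trait of clusters.

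Local background, the number of fragments that the caller expected from input, was higher at cluster peaks. It was over 2 times the lowest value of the list at 12.5% of cluster peaks of list 1 (10.99 to 14.2), against 8.86% of other peaks, and at 6.59% (5.46 to 7.93) against 4.10% in list 2. The part of this in the clusters was not tested. In list 2 a cluster at Sfi1 (chr11:3147322-3164572) had a median background of 45.2 fragments, against a highest of 4.47 in any other cluster, and its strongest peak was 3.21-fold. Chained without the peaks of raised background, the lists gave 180 and 210 clusters with median folds of 6.83 and 7.33.

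**Figure D4:**
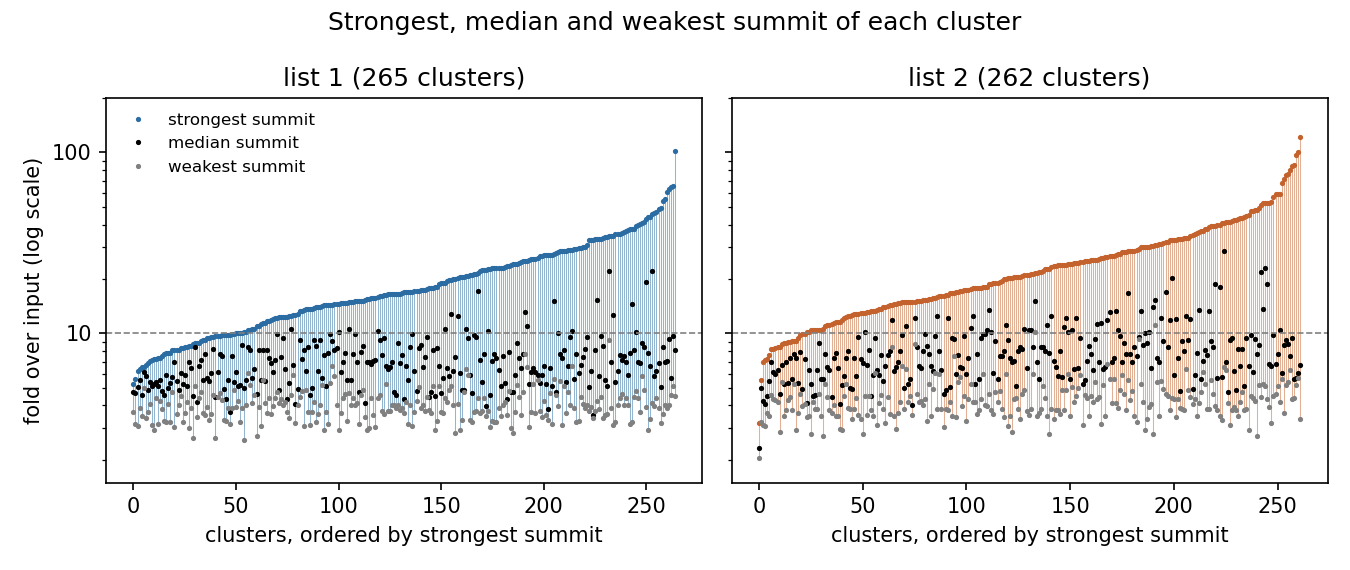
Fold over input (vertical axis, log scale) of the strongest, the median and the weakest summit of each cluster, with clusters ordered by their strongest summit (horizontal axis), for list 1 (left) and list 2 (right). The weakest summits stay between 2 and 12 while the strongest reach 102-fold and 122-fold; the dashed line marks 10-fold, and the low point at the left of list 2 is the Sfi1 cluster.

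Each of the strongest sites named here was called in both lists. The highest was in a cluster whose nearer end lay 90.0 kb from Pgrmc2, 101.9-fold in list 1 (301 fragments, 90.8 to 114.1) and 121.6-fold in list 2 (393 fragments, 109.9 to 134.2), with other summits of that cluster between 3.38- and 11.2-fold. A cluster of 5 summits in list 2, whose nearer end lay 330 kb from Myc, held a site of 100.8-fold (401 fragments, 91.2 to 111.1). List 1 had it at 59.7-fold (368 fragments, 53.7 to 66.1) with 4 summits in the stretch. Pdgfc, a growth factor for fibroblasts, held 6 summits in each list, and its leading site was 44.3-fold (38.1 to 51.2) in list 1 and 97.3-fold (86.3 to 109.4) in list 2. Galk2 had 39.4-fold (34.2 to 45.2) and 84.5-fold (74.5 to 95.5). At the Myc, Pdgfc and Galk2 sites the intervals of the lists did not overlap, but they leave out the error of the local background, which was higher in list 1 at each of these. It was 5.18 fragments in list 1 and 2.99 in list 2 at the Myc site, 3.11 and 1.87 at Pdgfc, and 4.15 and 2.03 at Galk2. Its part in the higher list 2 folds was not tested.

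Other leading sites differed less. A site in Lrrk1 was 64.3-fold (55.1 to 74.5) and 84.8-fold (74.5 to 96.1). A cluster 18.3 kb from Amotl2, encoding an angiomotin that binds YAP, had 55.1-fold (47.6 to 63.4) and 74.7-fold (65.0 to 85.4), intervals that did not overlap, over a background of 2.49 and 1.87 fragments. Sites in Atxn7l1 and Cubn were close in fold, 65.3 and 64.5 for Atxn7l1 and 62.8 and 59.7 for Cubn, although both genes had a cluster in list 1 alone.

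Between the lists, clusters overlapped in 149 of 265 cases for list 1 (56.2%, 50.2 to 62.1) and in 148 of 262 for list 2 (56.5%, 50.4 to 62.4). Large clusters overlapped more often than small ones. The limit of 5 summits favours this: a chain of 5 that lacks 1 summit in the other list falls under the limit there, and a longer chain need not. The part of the limit in the rise was not tested. With 5 summits it was 42.0% (34.1 to 50.4) in list 1 and 44.2% (36.2 to 52.5) in list 2, with 6 or 7 it was 63.3% and 64.1%, and with 8 or more 91.9% (78.7 to 97.2) and 87.5% (71.9 to 95.0). Merged over both lists there were 378 stretches: 148 with a cluster in both, 116 in list 1 alone and 114 in list 2 alone. In the shared stretches the numbers of summits differed by at most 1 in 121 and by 3 at most. The strongest summit was the same site, within 250 bp, in 110 of the 148 (74.3%, 66.7 to 80.7).

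A cluster in 1 list alone was seldom a stretch bound in that list alone. The other list had a median of 4 summits there, in both directions. At least 3 were present in 88.8% (81.8 to 93.3) of clusters found in list 1 alone and in 89.5% (82.5 to 93.9) of those in list 2 alone, and every such cluster held at least 1. Over all peaks, 70.9% of list 1 and 71.5% of list 2 overlapped a peak of the other list. Several partners in a run of 5 or more summits would follow from that share. No like figure was computed for other runs of peaks, so this is no trait of single-list clusters. The largest of these clusters serve as examples. Il34 with Sf3b3 held 12 summits in list 1 and 8 in list 2, none of which formed a chain of 5. Nrp2, a semaphorin receptor, had 8 against 3, and Mrtfa, a coactivator of SRF that responds to actin, 8 against 5. In the other direction Stard13 had 8 in list 2 against 3, Spaca6 with Has1 8 against 4, and Wls, which Wnt secretion needs, 8 against 4. The strongest folds at Mrtfa were 19.1 (14.9 to 24.0) in list 1 and 26.8 (21.8 to 32.6) in list 2, so the list without the cluster was no lower.

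Peaks of clusters were shared with the other list in 75.6% of cases in list 1 (73.4 to 77.6), against 70.9% of all peaks. For list 2 it was 78.2% (76.1 to 80.2) against 71.5%. Cluster peaks were also wider, which eases an overlap. Their median width was 524 bp against 470 bp for other peaks in list 1, and 498 bp against 441 bp in list 2. The part of width in the sharing was not tested. Cluster peaks without a partner were weak. Their median fold was 4.47 in list 1 and 4.61 in list 2, on 14 fragments in each, while shared ones had medians of 7.77 and 8.73. The lowest number of fragments at any summit was 8 in both lists.

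At 775 sites that were in clusters of both lists the summits stood a median of 26 bp apart. The log2 ratio of list 2 to list 1 folds had a median of 0.16 (SD 0.52 over sites), and all 14975 paired sites had 0.15. The shift in clusters was close to that of all pairs, and its relation to the scaling of the lists was not tested. Folds were at least 2 times higher in list 2 at 43 sites and in list 1 at 6. The highest ratio was next to Tubd1 in the Vmp1 cluster, 3.89-fold (17 fragments, 2.36 to 6.10) in list 1 and 13.6-fold (38 fragments, 9.73 to 18.5) in list 2, where local background was 3.63 and 1.87 fragments. The lowest was 0.745 kb from Angptl4, 8.67-fold (23 fragments, 5.63 to 12.8) and 3.65-fold (16 fragments, 2.18 to 5.80), with background of 1.77 and 3.65. At both sites background was higher in the list with the lower fold. Its part in these ratios was not tested.

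**Figure D5:**
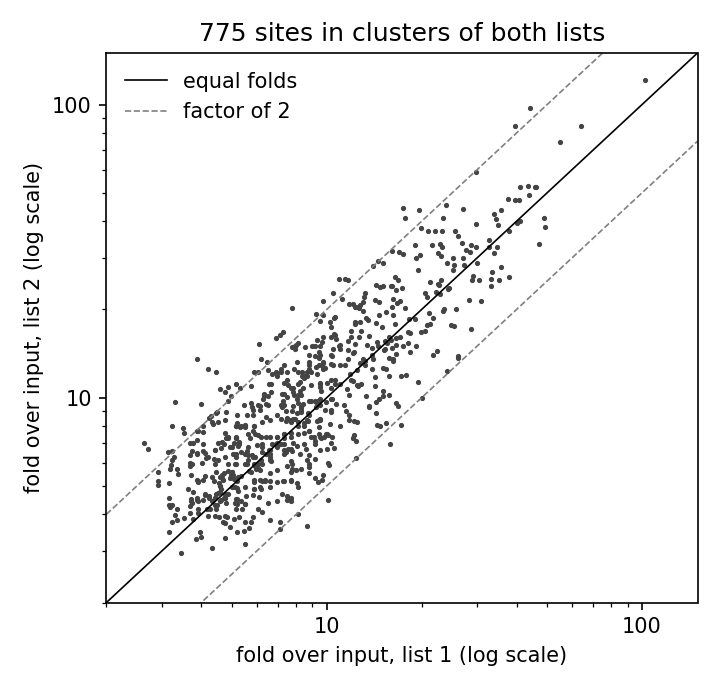
Fold over input in list 2 (vertical axis, log scale) against list 1 (horizontal axis, log scale) at the 775 sites that lie in clusters of both lists. Each point is 1 site, the solid line marks equal folds and the dashed lines a factor of 2; 43 points lie at or above the upper dashed line and 6 at or below the lower one.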

How the data were processed

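ChIP and input libraries of OE-NC and OE-TEAD1 cells were used, 1 of each. Reads were processed with Trimmomatic 0.33, Bowtie 1.1.2 and MACS2, per the submitters' processing notes. No source used here states the caller's settings. The 2 deposited lists give each peak's summit and the authors' own values: a score, which is 10 times the −log10 q, cut to whole numbers, for all but 2 peaks of list 2, the fold (a ratio of ChIP to local background with 1 added to both), and −log10 p and −log10 q. Whether the lists share an input is not given. The notes name mm39, but 280 and 260 summits fell in GRCm38.p6 promoter windows against 83 to 112 after shifts of 50 or 100 kb, so coordinates were read as GRCm38. An exon or intron of a summit was not analysed here.

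Computed here, with Python 3.11.15, numpy 2.4.6, pandas 2.3.3 and scipy 1.17.1 and tested on simulated data, were the chains, the overlaps (at least 1 bp), and the fragments at each summit with the local background, solved from fold and p. Fragments came out whole (within 0.02) for 99.99% of peaks. Library totals are not in the lists. Intervals of percentages are Wilson 95% intervals over peaks, clusters or windows, which are not independent. Intervals of folds are exact Poisson 95% intervals and cover only counting error of the ChIP libraries. With 1 library a condition no test was possible. Summits of the other list within 250 bp of a cluster's ends counted as in its span, and paired sites were each other's best overlap.

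Named clusters were, in each list, the 10 with most summits, the 5 with most summits per kb among those with at least 6, the 5 with the highest −log10 q, and the 3 largest found in 1 list only. Genes of the lists with a cluster in both lists were named too, and the single-list genes, the microRNAs and the most unequal sites were added after their values were seen. The clusters and the 15 gene lists (248 genes, all matched in the RefSeq table) were chosen with earlier results of these data known. Alternatives changed the gap, the summit limit, the peaks used, the overlap and the reach to genes. Some members of the gene groups are counted but not reported here by name.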

Additional observations from a re-analysis of the deposited data

How the results depend on the processing

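The number of clusters follows the definition. In list 1 and list 2 it was 73 and 73 with gaps of at most 6.25 kb, 703 and 645 with 25 kb, 620 and 559 with 4 or more summits, 127 and 124 with 6 or more, and 29 and 29 from the 10000 strongest peaks of each list. The overlap of clusters between lists, in percent of list 1 and list 2 clusters, was 38.4 and 38.4 at 6.25 kb, 48.3 and 48.3 from the strongest peaks, and 65.7 of list 2 clusters at 25 kb. Shared cluster peaks were 73.3% of list 1 at 25 kb, 82.5% of list 2 from the strongest peaks, and 64.1% and 65.3% when summits had to lie within 100 bp. The median fold of list 2 cluster peaks was 6.98 at 6.25 kb, and from the strongest peaks the medians were 9.99 and 11.8 and the log2 ratio of paired folds 0.35. Overlap with gene spans was 58.9% of list 2 clusters at 6.25 kb, 71.1% of list 1 clusters at 25 kb, 55.2% and 58.6% from the strongest peaks, and 70.9% and 73.7% within 10 kb of a span. With peaks of low local background alone, chosen after seeing the data, cluster overlap was 48.9% and 41.9%, shared peaks 70.9% and 68.6%, and the list 1 median fold 6.83. The other 68 of 102 alternative values stayed within the interval of the reported value, or within 1.5 times a count, and none changed sign. No paired analysis was possible because each group has 1 library and no result comes from a test.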

Other observations

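The block of chromosome 9 that was left out held 42 peaks in list 1 and 80 in list 2. Local background there had medians of 4.69 and 10.96 fragments, against lowest values of 1.72 and 1.87 in the lists. Chained in the same way it gave 0 chains of 5 or more summits in list 1, where the longest had 4, and 1 chain of 7 in list 2.

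Long non-coding RNA genes also met clusters: 113 of 12697 overlapped one in list 1 (0.890%, 0.741 to 1.07) and 105 in list 2 (0.827%, 0.684 to 1.00). Of all protein-coding genes 0.814% and 0.883% did so. Wincr1 was one whose promoter window held a cluster summit in both lists, 169 bases before its start at 22.3-fold (17.1 to 28.5) in list 1 and 127 bases before it at 23.0-fold (18.2 to 28.6) in list 2. That window held neither GGAATG nor TGANTCA. Il1r1, the interleukin 1 receptor, had a cluster summit in its promoter window in list 1 alone (15.8-fold, 11.5 to 21.2), and Rin1 in list 2 alone (13.3-fold, 9.44 to 18.1). These were chosen after their values were seen.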
